A study of Homo sapiens with 9 samples.

Results

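The transcription factor p53 is activated by DNA damage and other stresses, binds a pair of short half-sites in DNA and raises the transcription of genes that halt the cell cycle, repair DNA or start apoptosis. MDM2, one of its targets, ubiquitinates p53 and so closes a negative feedback loop. Clear cell renal cell carcinoma (ccRCC) is usually driven by loss of VHL and the HIF2α that then accumulates, and p53 is altered in it less often than in many other cancers. The question here was how 9 direct p53 targets were expressed when either of a pair of related bHLH-PAS proteins was depleted, ARNT, the classical partner of HIF2α, or BMAL1, the circadian clock protein that pairs with CLOCK. The members were taken by gene name from the count table: MDM2, GDF15, BBC3, BAX, FAS, TP53I3, ZMAT3, RRM2B and TP53INP1. They are 9 of the 27671 genes in the table, and all 9 were among the 15551 genes with enough reads to be tested.

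The cells were A498, an established human ccRCC line, recorded as WT for genotype. They were infected with lentivirus carrying a control hairpin (shControl), a hairpin against BMAL1 (shBMAL1) or a hairpin against ARNT (shARNT) and kept under puromycin, so all 9 libraries came from infected and drug-selected cells. Each group had 3 biological replicates, and how these replicates were separated was not stated, so p-values measure the spread between these samples. The labels name a single hairpin group per depleted gene, and an effect of the hairpin itself and an effect of the lost protein cannot be told apart.

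The libraries held between 35269851 and 36099075 reads in genes. These totals exceed the depth that the paper states for its cell line libraries, and whether both reads of a pair were counted was not stated. With halved counts, 8 members were still called higher and 1 lower in each depletion against shControl. ARNT RNA in shARNT was 18.8% of its shControl level, and BMAL1 RNA, listed as ARNTL, was 30.9% of its shControl level in shBMAL1. ARNT was also at 63.9% in shBMAL1, whereas ARNTL was at 146% in shARNT. The kidney and epithelial markers PAX8, PAX2, KRT8, KRT18 and VIM were expressed in every library. Of the markers of other cell types, CD3E was at 0 in every library, PTPRC, PECAM1 and CDH5 reached at most 12, 4 and 1 reads, and ALB reached 35. Summed over these 5 genes, the reads ran from 17 to 24 in shControl, from 35 to 41 in shBMAL1 and from 5 to 6 in shARNT, and their part in the results was not tested.

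Promoter sequences are shown for the 5 members in which a p53 site or an E-box was found, since they hold the letters of motifs known for p53 or for the depleted proteins. RefSeq windows on GRCh38.p14, running from 250 bases before to 50 bases after a transcript start, were present for 7 of the 9 members, with 13 windows in all. The p53 site was searched as its consensus of 20 bases, made of 2 adjoining half-sites of 10 bases, with up to 3 mismatches. The E-box bound by BMAL1 was searched as CACGTG, and the core of the hypoxia response element (HRE) bound by ARNT with HIF2α as ACGTG or GCGTG. All were read on both strands, and each E-box also holds an HRE core on either strand. Bases are counted from the transcript start, and capitals mark the p53 sites in MDM2, FAS and GDF15 and the E-boxes in BAX and BBC3.
MDM2, chr12:68808915-68808988, plus strand: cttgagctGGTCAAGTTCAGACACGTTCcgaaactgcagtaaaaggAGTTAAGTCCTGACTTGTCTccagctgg
FAS, chr10:88991301-88991336, plus strand: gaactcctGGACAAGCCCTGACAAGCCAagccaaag
GDF15, chr19:18386178-18386207, plus strand: acctgcacAGCCATGCCCGGGCAAGAACtc
BAX, chr19:48954729-48954874, plus strand: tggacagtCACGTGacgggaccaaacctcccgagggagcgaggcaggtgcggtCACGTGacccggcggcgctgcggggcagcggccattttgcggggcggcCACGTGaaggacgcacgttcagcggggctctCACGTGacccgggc
BBC3, chr19:47232886-47232907, minus strand: ggagatttCACGTGagatatag

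The 2 MDM2 sites lay in the window of a downstream start, with their first bases at -94 and -56, and held 2 and 3 mismatches. In FAS 1 site with 2 mismatches began at -122 in the window of its most downstream start, and the windows of its upstream starts held none. In GDF15 1 site with 3 mismatches began at 29, after the start. A p53 site under this rule was present in 5.2% of all 35116 promoter windows of the same length. The BAX window held 4 E-boxes, beginning at -138, -93, -45 and -14, and no p53 site, and the BBC3 window held 1 E-box at -232. An E-box was present in 7.26% of all windows, and 4 or more E-boxes in 5 windows (0.0142%), a count examined after the BAX sequence had been seen. An HRE core also overlapped the first MDM2 site. The core was common, being present in 48.4% of windows. No match to any of the 3 motifs was found in the TP53I3 window, and ZMAT3 held HRE cores alone, which says only that these letters are not in those windows.

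**Figure D1:**
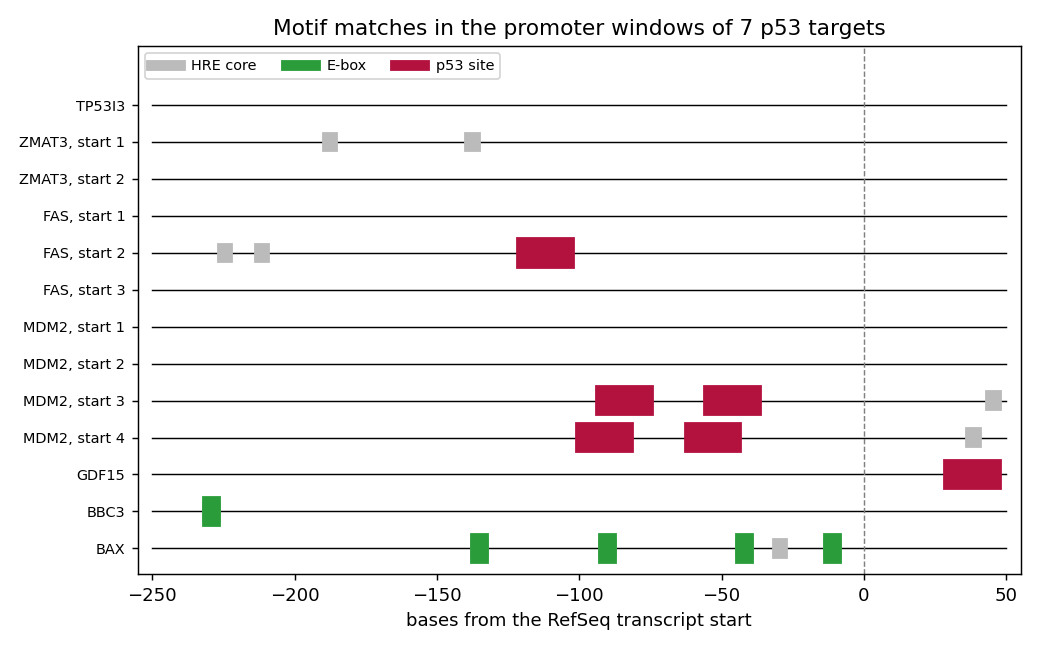
Positions of p53 sites (red), E-boxes (green) and HRE cores (grey) in the 13 RefSeq promoter windows of 7 p53 targets, with distance in bases from the transcript start on the x axis and 1 line per start. The 4 E-boxes of BAX, the 2 p53 sites of MDM2 and the sites of FAS and GDF15 stand out, and HRE cores that lie inside an E-box or a p53 site are hidden beneath it.

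Depletion of either protein was accompanied by higher RNA of 8 of the 9 targets, and TP53I3 was the exception. The members had been chosen with earlier results of these data known, so the shares below describe these genes and do not test them as a set. In shARNT against shControl, 8 members rose and 1 fell, where 40.5% of all tested genes were called higher and 41.3% were called lower. The members' median log2 fold change was 1.28, compared with -0.01 over all tested genes. In shBMAL1 against shControl, 8 members again rose and 1 fell, where 31.9% of tested genes were called higher and 31.5% lower, and the median was 0.77 against -0.00 over all genes. These comparisons share the shControl libraries, so their values are given side by side and are not independent of each other. All calls used edgeR's quasi-likelihood F-test over all tested genes at a Benjamini-Hochberg adjusted p under 0.1. The 3 libraries of the depleted group lay above all 3 shControl libraries for the same 8 members in each depletion, as they did for 39.5% of tested genes in shARNT and 31.4% in shBMAL1.

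The depletions were then compared directly, without control libraries. In shARNT against shBMAL1, 8 members were called higher, none lower and 1 was not called, where 40.1% of tested genes were called higher and 41.1% lower. The members' median log2 difference was 0.60, compared with -0.01 over all genes. The 3 shARNT libraries lay above the 3 shBMAL1 libraries for 8 members, as for 39.4% of tested genes. Thus 7 targets had their highest level in shARNT, with shBMAL1 between it and shControl, whereas TP53I3 was lowest in shBMAL1 and RRM2B was the member not called.

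**Figure D2:**
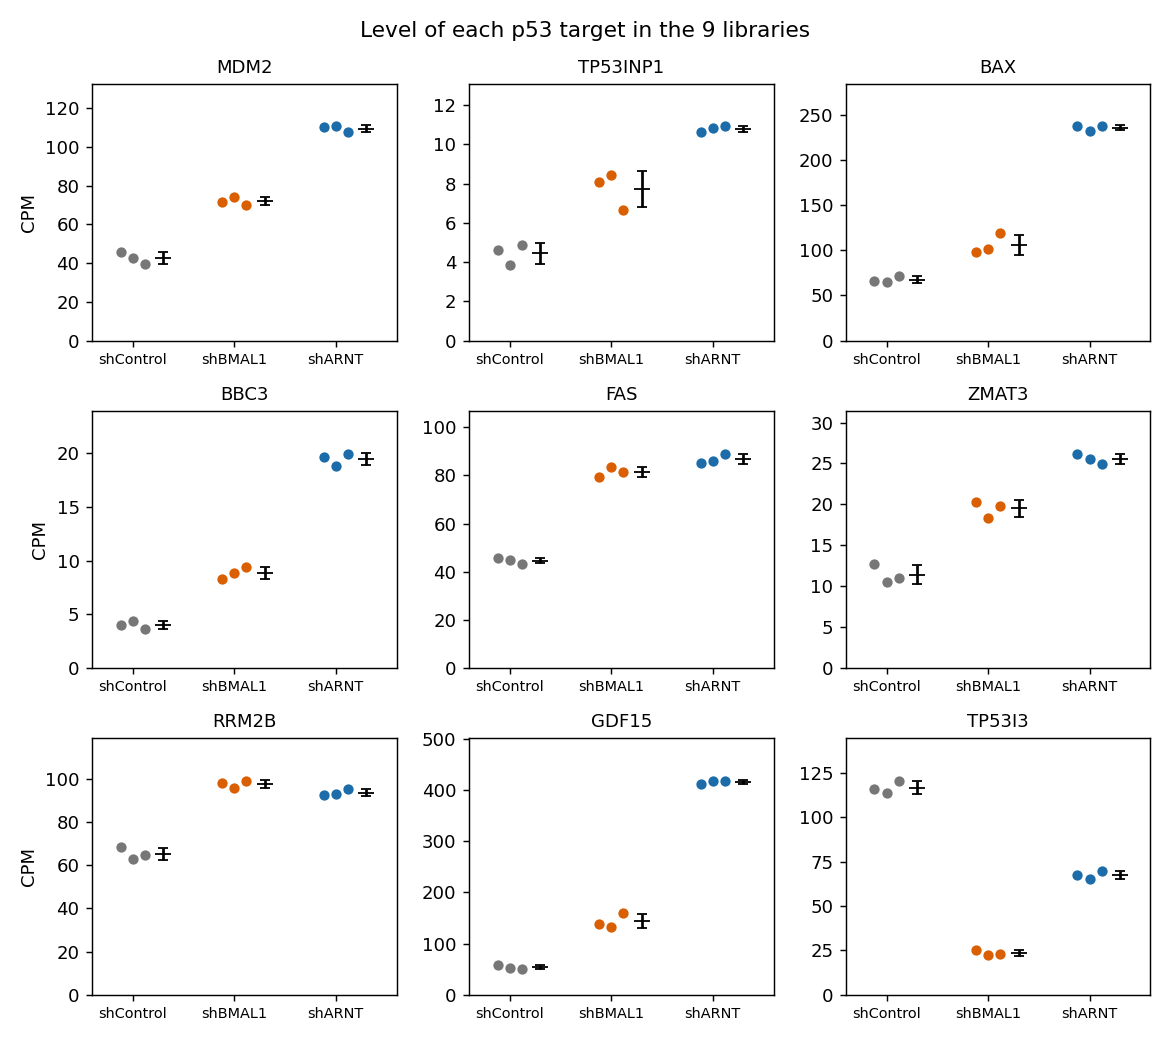
Level of each of the 9 p53 targets in CPM (reads per 1000000 of the scaled library, y axis from 0) in the 3 libraries of each group, with points for libraries and black bars for the mean ± SD. GDF15 ran from about 51.3 to 58.4 in shControl and from 412 to 418 in shARNT, and only TP53I3 was lower in the depleted cells than in shControl.

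MDM2, the E3 ligase that restrains p53, is at chr12:69201957-69239324 on the plus strand (GRCh37). Its level in CPM was 45.5, 42.7 and 39.3 in the shControl libraries, 71.8, 74.5 and 70.2 in shBMAL1, and 110.5, 111 and 108 in shARNT. The groups did not overlap, and the order was shControl, shBMAL1, shARNT. The mean rose from 42.5 ± 3.11 (SD, n = 3) to 72.2 ± 2.17 in shBMAL1 and 109.6 ± 1.74 in shARNT. MDM2 thus increased 2.58-fold in shARNT (log2 1.37, SE 0.0527, adjusted p = 3.08e-15) and 1.70-fold in shBMAL1 (log2 0.76, SE 0.0533, adjusted p = 2.21e-10). The shARNT libraries exceeded shBMAL1 by 0.60 on the log2 scale (SE 0.0508, adjusted p = 1.02e-09). CPM, a carboxypeptidase gene on the opposite strand that overlaps MDM2, had at most 182 reads in any library.

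TP53INP1, a stress protein that promotes p53 phosphorylation and autophagy, is at chr8:95938200-95961606 on the minus strand. It was among the lowest members, at 4.60, 3.86 and 4.87 CPM in shControl, 8.07, 8.42 and 6.67 in shBMAL1, and 10.6, 10.8 and 10.9 in shARNT. The 3 groups did not overlap, although the shBMAL1 libraries were the most spread. TP53INP1 rose 2.43-fold in shARNT (log2 1.28, SE 0.118, adjusted p = 4.13e-09) and 1.74-fold in shBMAL1 (log2 0.80, SE 0.122, adjusted p = 1.21e-05). The direct difference was 0.48 (SE 0.111, adjusted p = 0.000562). NDUFAF6, which overlaps it on the opposite strand, rose too, by 1.02 in shARNT and by 0.57 in shBMAL1 on the log2 scale. Since the use of strand in counting was not stated, reads of the pair may not be fully separated.

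BBC3 (PUMA), a BH3-only protein that releases BAX from its inhibitors, is at chr19:47724079-47736023 on the minus strand. Its level was 3.97, 4.37 and 3.60 CPM in shControl, 8.31, 8.85 and 9.44 in shBMAL1, and 19.6, 18.9 and 19.98 in shARNT. Every shARNT library was above every shBMAL1 library, and these were above every shControl library. BBC3 increased 4.89-fold in shARNT (log2 2.29, SE 0.0993, adjusted p = 2.04e-14) and 2.23-fold in shBMAL1 (log2 1.15, SE 0.105, adjusted p = 1.14e-08). The direct difference was 1.14 (SE 0.0898, adjusted p = 3.71e-10).

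BAX, the pore-forming protein that permeabilizes the outer mitochondrial membrane, is at chr19:49458072-49465055 on the plus strand. The shControl libraries had 66.1, 64.5 and 71.4 CPM, the shBMAL1 libraries 97.5, 101 and 119, and the shARNT libraries 237, 232 and 237. Replicate 3 of shBMAL1 was the highest of its group, but it remained far below shARNT. BAX increased 3.49-fold in shARNT (log2 1.80, SE 0.0597, adjusted p = 2.54e-16) and 1.57-fold in shBMAL1 (log2 0.65, SE 0.0599, adjusted p = 1.32e-08). Directly compared, shARNT was above shBMAL1 by 1.15 (SE 0.0578, adjusted p = 2.23e-13). BAX is the member whose promoter window held 4 E-boxes, and no annotated gene overlapped it.

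FAS, the death receptor of the extrinsic pathway, is at chr10:90750414-90775542 on the plus strand. It was at 45.5, 44.8 and 43.3 CPM in shControl, 79.3, 83.4 and 81.4 in shBMAL1, and 85.2, 86.2 and 89.1 in shARNT. The 2 depleted groups were close together without overlapping, and both were well above shControl. FAS increased 1.95-fold in shARNT (log2 0.96, SE 0.0467, adjusted p = 1.25e-13) and 1.83-fold in shBMAL1 (log2 0.87, SE 0.047, adjusted p = 4.18e-12). The direct difference was 0.09 (SE 0.045, adjusted p = 0.0654), and it was no longer called without shBMAL1 replicate 1 (adjusted p = 0.206), shBMAL1 replicate 3 (adjusted p = 0.114) or shARNT replicate 3 (adjusted p = 0.182), nor without the filter on low counts (adjusted p = 0.124). ACTA2, the smooth muscle actin gene that overlaps FAS on the opposite strand, moved the other way in shARNT, with a mean of 57.6 CPM in shControl, 54.0 in shBMAL1 and 19.6 in shARNT.

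TP53I3 (PIG3), a quinone oxidoreductase linked to oxidative stress during p53-dependent apoptosis, was the only member that fell. It is at chr2:24300303-24308731 on the minus strand. The shControl libraries had 116, 113.5 and 120.4 CPM, the shBMAL1 libraries 25.2, 22.4 and 22.9, and the shARNT libraries 67.4, 65.0 and 69.9. The groups were far apart, and shBMAL1 was the lowest. TP53I3 fell to 0.202 of the shControl level in shBMAL1 (log2 -2.31, SE 0.0553, adjusted p = 2.65e-17), and the absolute size of this change was above that of 98.7% of tested genes. In shARNT it fell to 0.579 (log2 -0.79, SE 0.0504, adjusted p = 1.18e-11), a size above that of 58.2% of tested genes. The direct difference was 1.52 (SE 0.0553, adjusted p = 1.17e-15), with shARNT above shBMAL1. FAM228B, on the opposite strand, had between 184 and 237 reads in every library, compared with 770 to 860 for TP53I3 in shBMAL1.

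**Figure D3:**
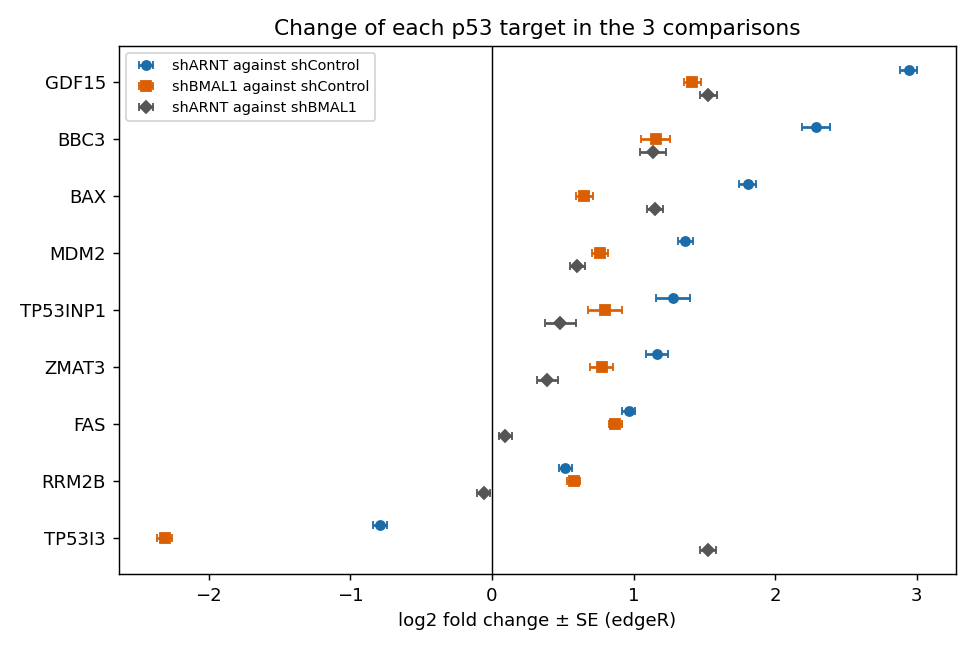
Log2 fold change of each p53 target in shARNT against shControl (blue circles), shBMAL1 against shControl (orange squares) and shARNT against shBMAL1 (grey diamonds), with bars for the standard error of the edgeR fit. GDF15 is the highest at 2.94 in shARNT, TP53I3 is the lowest at -2.31 in shBMAL1, and FAS and RRM2B have grey diamonds near 0.

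GDF15, a secreted cytokine of the TGF-β superfamily that reports cell stress and suppresses appetite, had the largest increase among the members. It is at chr19:18485541-18499986 on the plus strand. Its level was 58.4, 52.6 and 51.3 CPM in shControl, 139, 133 and 160.4 in shBMAL1, and 412, 418 and 418 in shARNT. The spread within shARNT was small beside the distance between groups, with means of 54.1 ± 3.81, 144 ± 14.4 and 416 ± 3.52 (SD, n = 3 each). GDF15 increased 7.69-fold in shARNT (log2 2.94, SE 0.0614, adjusted p = 1.65e-19) and 2.67-fold in shBMAL1 (log2 1.41, SE 0.0603, adjusted p = 1.18e-13). The direct difference was 1.53 (SE 0.057, adjusted p = 1.83e-15). In absolute size the change of GDF15 was above that of 96.6% of tested genes in shARNT and of 95.1% in shBMAL1.

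GDF15 is also a target of the integrated stress response, in which ATF4 and CHOP (DDIT3) activate genes of amino acid supply and stress. ATF4 rose by 0.50 in shARNT (SE 0.0424, adjusted p = 9.77e-10) and by 0.23 in shBMAL1 (SE 0.0425, adjusted p = 0.000132). DDIT3 rose by 0.70 in shARNT (SE 0.102, adjusted p = 3.04e-06) and by 0.47 in shBMAL1 (SE 0.105, adjusted p = 0.000702). Of 8 genes of that response, 4 were higher, 3 lower and 1 not called in shARNT, and 5 were higher and 3 lower in shBMAL1. The shARNT shares, 50% higher and 37.5% lower, were near the 40.5% and 41.3% of all tested genes, and in shBMAL1 the shares were 62.5% and 37.5% against 31.9% and 31.5%. TRIB3, a pseudokinase induced by ATF4 and CHOP, fell by 2.89 in shARNT (SE 0.0738, adjusted p = 3.59e-18) and by 0.44 in shBMAL1 (SE 0.065, adjusted p = 9.03e-06). PPP1R15A (GADD34), a subunit that directs a phosphatase to eIF2α, rose by 0.96 in shARNT (SE 0.0484, adjusted p = 2.56e-13). In shBMAL1, ASNS, asparagine synthetase, rose by 0.65 (SE 0.0499, adjusted p = 9.35e-10). PSAT1, of serine synthesis, fell by 0.60 in shBMAL1 (SE 0.0798, adjusted p = 2.08e-06) and by 0.81 in shARNT (SE 0.0799, adjusted p = 1.27e-08). The largest rise of the list in shBMAL1 was that of CHAC1, at 1.91 (SE 0.173, adjusted p = 1.04e-08), with an average log2 CPM of 1.59. Directly compared, 3 of the 8 genes were higher in shARNT and 5 lower. These shares were 37.5% and 62.5%, against 40.1% and 41.1% of all tested genes. The list's part in the level of GDF15 was not tested.

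ZMAT3 and RRM2B represent RNA processing and nucleotide supply. ZMAT3, a zinc finger protein that binds RNA and regulates splicing, is at chr3:178677909-178790003 on the minus strand. It was at 12.7, 10.5 and 10.9 CPM in shControl, 20.3, 18.4 and 19.8 in shBMAL1, and 26.2, 25.6 and 24.9 in shARNT. The 3 groups did not overlap. ZMAT3 increased 2.24-fold in shARNT (log2 1.17, SE 0.0798, adjusted p = 3.57e-11) and 1.71-fold in shBMAL1 (log2 0.77, SE 0.0816, adjusted p = 9.09e-08). The direct difference was 0.39 (SE 0.0757, adjusted p = 9.78e-05).

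RRM2B, the p53-inducible small subunit of ribonucleotide reductase that supplies dNTPs for DNA repair, is at chr8:103216730-103251189 on the minus strand. The shControl libraries had 68.4, 62.9 and 64.8 CPM, the shBMAL1 libraries 98.0, 95.5 and 99.0, and the shARNT libraries 92.4, 93.1 and 95.3. It had the smallest increase in both depletions, at 1.43-fold in shARNT (log2 0.52, SE 0.0453, adjusted p = 1.79e-09) and 1.49-fold in shBMAL1 (log2 0.58, SE 0.0454, adjusted p = 1.29e-09). RRM2B was the only member whose direct difference was not called (log2 -0.06, SE 0.0444, adjusted p = 0.227), and with library size alone as the scaling this difference turned to 0.13 (adjusted p = 0.0124).

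When a change of more than 1.5-fold was required by the test, rather than any change, 7 members were called higher in shARNT against shControl (20% of all tested genes), 5 in shBMAL1 against shControl (6.6%) and 4 in shARNT against shBMAL1 (19.4%). TP53I3 was still called lower in each depletion. The members lost were RRM2B in both depletions, BAX and TP53INP1 in shBMAL1, and MDM2, FAS, ZMAT3 and TP53INP1 in the direct comparison.

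To compare levels between genes, CPM was divided by the length of each gene's merged exons. In shControl, TP53I3 was the most abundant member at 50.4 CPM per kb, followed by BAX at 26.0 and GDF15 at 25.9, whose libraries overlapped. FAS at 12.5 and RRM2B at 12.1 overlapped too, and MDM2 at 5.12, BBC3 at 1.25, ZMAT3 at 1.01 and TP53INP1 at 0.787 followed in that order. In shARNT the order began with GDF15 at 199 CPM per kb and BAX at 90.9, and TP53I3 was the third at 29.2. In shBMAL1 GDF15 led at 69.1, and TP53I3, at 10.2, was below FAS at 22.9 and RRM2B at 18.1. TP53I3 was therefore first among these 9 RNAs in shControl, and GDF15 was first in both depletions.

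Genes whose levels over the 9 libraries were closest to those of MDM2 and GDF15 were sought among 11038 other genes averaging 2 or more on the log2 CPM scale, by the root mean square distance of log2 CPM after centring. For MDM2 these were PDAP1 (distance 0.0496), PISD (0.0557) and SRPK2 (0.0793). Those closest to GDF15 were CABYR (0.158), NCEH1 (0.231) and NCOA3 (0.246).

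A further 45 direct p53 targets were examined by role, of which 43 were tested. These genes too had been chosen with earlier results of these data known. TP53AIP1 and SERPINB5 had too few reads. In shARNT 30 were higher (69.8%, against 40.5% of all tested genes) and 13 lower (30.2%, against 41.3%), with a median log2 fold change of 0.82. In shBMAL1 25 were higher (58.1%, against 31.9%), 10 lower (23.3%, against 31.5%) and 8 not called, with a median of 0.27. Directly compared, 29 were higher in shARNT (67.4%, against 40.1%), 12 lower (27.9%, against 41.1%) and 2 not called, with a median of 0.36. Gene by gene against shControl, only 18 of the 43 were called up in both depletions, and 3 were called down in both. A further 7 rose with ARNT depletion but fell with BMAL1 depletion, and 7 others showed the opposite pattern. The remaining genes were called in shARNT alone, 5 up and 3 down. The matching split over all tested genes was not counted.

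Of 12 genes of cell cycle arrest and feedback, 10 were higher and 2 lower in shARNT, and 7 were higher, 1 lower and 4 not called in shBMAL1. The shares called higher were 83.3% and 58.3%, against 40.5% and 31.9% of all tested genes. BTG2, an antiproliferative regulator of mRNA deadenylation, rose by 2.56 on the log2 scale in shARNT (SE 0.102, adjusted p = 5.39e-15) but had a value of 0.18 in shBMAL1 (SE 0.117, adjusted p = 0.189), and the direct difference was 2.38 (SE 0.1, adjusted p = 1.31e-14). GADD45A, a stress sensor of the G2 checkpoint, had the reverse emphasis. It rose by 1.63 in shBMAL1 (SE 0.104, adjusted p = 5.77e-11) and by 0.76 in shARNT (SE 0.107, adjusted p = 1.78e-06), with a direct difference of -0.86 (SE 0.0974, adjusted p = 8.77e-08).

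Of 11 tested apoptosis targets, 7 were higher and 4 lower in shARNT, and 6 were higher, 3 lower and 2 not called in shBMAL1. The shares were 63.6% higher and 36.4% lower in shARNT, against 40.5% and 41.3% of all tested genes, and 54.5% and 27.3% in shBMAL1, against 31.9% and 31.5%. PIDD1, a death domain scaffold that activates caspase-2, rose by 3.02 in shARNT (SE 0.0913, adjusted p = 5.57e-17), although PANO1 overlaps it on the opposite strand. PMAIP1 (NOXA), a BH3-only protein, rose by 1.13 in shBMAL1 (SE 0.149, adjusted p = 2.1e-06) and by 1.46 in shARNT (SE 0.145, adjusted p = 1.41e-08). AEN, an apoptotic nuclease, rose by 1.11 in shBMAL1 (SE 0.0577, adjusted p = 2.46e-12) and by 1.22 in shARNT (SE 0.0572, adjusted p = 7.16e-14). TNFRSF10A, a TRAIL receptor, fell by 0.35 in shBMAL1 (SE 0.068, adjusted p = 0.000184) and rose by 1.48 in shARNT (SE 0.063, adjusted p = 1.45e-14).

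The repair targets were mixed, with 2 of 5 higher and 3 lower in shARNT, and 3 higher and 2 lower in shBMAL1. Their shares called higher were 40% and 60%, against 40.5% and 31.9% of all tested genes. Those called lower were 60% and 40%, against 41.3% and 31.5%. Of 15 tested targets in metabolism, lysosome and other roles, 11 were higher and 4 lower in shARNT, and 9 were higher, 4 lower and 2 not called in shBMAL1. The shares called higher in this group were 73.3% and 60%, against 40.5% and 31.9% of all tested genes. TIGAR, a fructose bisphosphatase that diverts glucose to the pentose phosphate pathway, rose by 2.72 in shARNT (SE 0.0822, adjusted p = 5.69e-17), although a gene model on the same strand overlaps it. STEAP3, an endosomal ferrireductase that STEAP3-AS1 overlaps on the opposite strand, fell by 2.15 in shARNT (SE 0.0441, adjusted p = 1.3e-19), and FUCA1, a lysosomal fucosidase, fell by 1.12 (SE 0.0674, adjusted p = 4.55e-12). ALDH4A1, the mitochondrial enzyme of proline breakdown, fell in both depletions, by 1.16 in shARNT (SE 0.0803, adjusted p = 4.14e-11) and by 1.52 in shBMAL1 (SE 0.0834, adjusted p = 5.25e-12). A protein-coding gene model on the same strand overlaps ALDH4A1. SUSD6 fell by 0.71 in shBMAL1 (SE 0.103, adjusted p = 6.81e-06) and rose by 0.68 in shARNT (SE 0.0941, adjusted p = 1.51e-06). ACER2 had the largest rise of all tested targets outside the members in both depletions, although its average log2 CPM was only 1.99. It rose by 3.43 in shARNT (SE 0.178, adjusted p = 3.83e-13) and by 1.67 in shBMAL1 (SE 0.201, adjusted p = 5.43e-07).

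**Figure D4:**
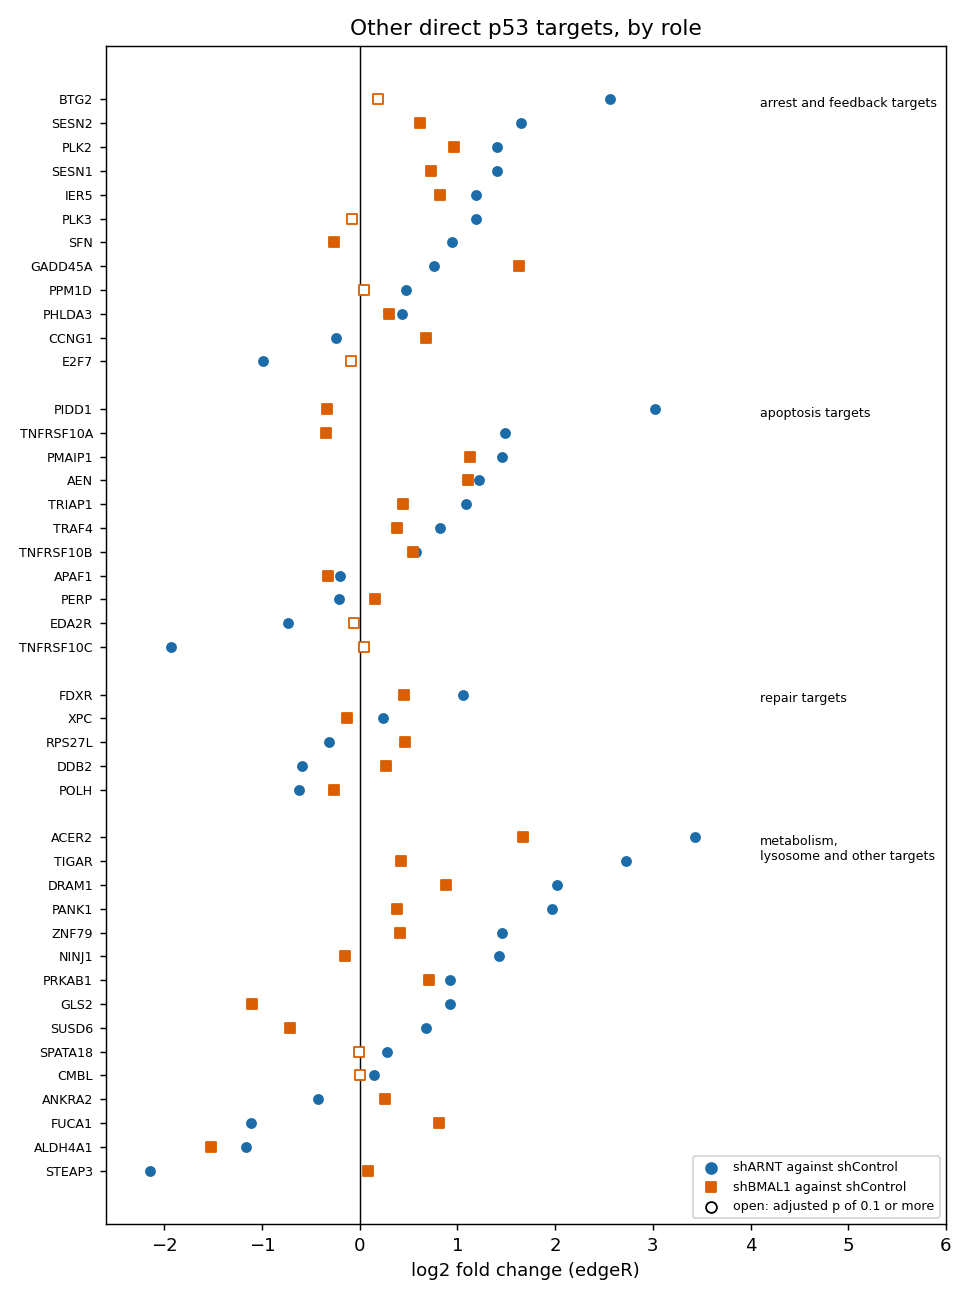
Log2 fold change of the 43 tested p53 targets outside the 9 members, grouped by role, in shARNT (blue circles) and shBMAL1 (orange squares) against shControl, with filled symbols for genes with adjusted p under 0.1. Most blue circles of the arrest group lie to the right of 0 (10 of 12), whereas the 5 repair genes lie on both sides.

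Of 21 tested regulators and cofactors of p53, 9 were higher, 8 lower and 4 not called in shARNT, and 4 were higher, 11 lower and 6 not called in shBMAL1. The shARNT shares, 42.9% higher and 38.1% lower, were near those of all tested genes (40.5% and 41.3%), whereas in shBMAL1 they were 19% and 52.4% against 31.9% and 31.5%. Directly compared, 13 were higher in shARNT, 4 lower and 4 not called. These shares were 61.9% higher and 19% lower, against 40.1% and 41.1% of all tested genes. MDM4, the MDM2 relative that inhibits p53 transactivation, rose by 0.78 in shARNT (SE 0.121, adjusted p = 7.39e-06) and fell by 0.35 in shBMAL1 (SE 0.131, adjusted p = 0.0297). CHEK1, the replication checkpoint kinase, fell by 1.97 in shARNT (SE 0.0655, adjusted p = 2.68e-16) and by 0.66 in shBMAL1 (SE 0.0609, adjusted p = 1.32e-08). STT3A on the same strand and ACRV1 on the opposite strand overlap CHEK1. PPP1R13L (iASPP), an inhibitor of p53, fell by 0.92 in shARNT (SE 0.0549, adjusted p = 4e-12) and by 0.61 in shBMAL1 (SE 0.0545, adjusted p = 9.61e-09). HIPK2, a kinase that phosphorylates p53, fell by 1.13 in shBMAL1 (SE 0.101, adjusted p = 8.29e-09) and by 0.59 in shARNT (SE 0.0977, adjusted p = 1.62e-05). TBXAS1 overlaps HIPK2 on the opposite strand.

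Cell cycle genes that p53 represses indirectly through the DREAM complex were also counted. In shBMAL1, 13 of 15 were lower, none higher and 2 not called, with a median of -0.34. That is 86.7% lower, against 31.5% of all tested genes, and 0% higher, against 31.9%. MKI67, the proliferation antigen, fell by 0.52 (SE 0.0795, adjusted p = 1.13e-05), and AURKA, a mitotic kinase, fell by 0.52 (SE 0.0676, adjusted p = 1.49e-06). In shARNT 6 were higher, 7 lower and 2 not called, and these shares of 40% and 46.7% were near the 40.5% and 41.3% of all tested genes. TOP2A, DNA topoisomerase II alpha, fell by 0.96 in shARNT (SE 0.058, adjusted p = 4.7e-12), and KIF23, a kinesin of cytokinesis, rose by 0.81 (SE 0.0672, adjusted p = 7.7e-10). The direct comparison gave 8 higher in shARNT, 3 lower and 4 not called. These shares were 53.3% higher and 20% lower, against 40.1% and 41.1% of all tested genes.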

How the data were processed

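Total RNA from 9 libraries of A498 cells, 3 per group, was sequenced from stranded mRNA libraries. The values deposited by the authors were expected counts, that is, reads per gene without normalization. The study's methods name GRCh37, SeqMan NGen and ArrayStar, whereas the submitters' processing notes name hg38, STAR and DESeq2, and which of these made the table was not settled. The annotation release, the use of strand and the treatment of reads with several alignments were not given in the sources used here. A value of 0.05 stood for no reads and was replaced by 0, and the expected counts were then rounded. Genes were filtered with filterByExpr, leaving 15551, and scaled by TMM, whose factors ran from 0.932 to 0.944 in shControl, from 0.961 to 0.971 in shBMAL1 and from 1.1 to 1.11 in shARNT. All 9 libraries were fitted together in edgeR 4.0.16 (R 4.3.3) with group as the term, and 3 contrasts were tested by the quasi-likelihood F-test, with a Benjamini-Hochberg adjusted p below 0.1 as the threshold. CPM values are counts divided by the TMM-scaled library size. Every member had at least 119 reads in every library, and p-values cover the spread between these samples. The scripts were tested on simulated data.

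Alternatives were library size alone, RLE factors, DESeq2 1.42.0, no filter beyond 1 count, only the 6 libraries compared, a replicate block, halved counts, a minimum fold change of 1.5 and leaving out each library. Gene positions are from GENCODE lifted to GRCh37, and overlapping noncoding genes and pseudogenes are not named for every gene. Promoter windows are from RefSeq on GRCh38.p14, and no coordinates were converted. The members and gene lists were chosen with earlier results of these data known. Named beyond the members were, per depletion, the 3 largest called rises and falls among other targets, the 2 largest called changes in the regulator, DREAM and stress response lists (average log2 CPM of at least 2), and MDM4. BTG2, GADD45A and others so named in one depletion are given in the other where the values bear on it. The floor on the average log2 CPM applied to the other targets as well, so larger changes below it are not named. ATF4, DDIT3, CHAC1 and ACER2 are named outside this rule.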

Additional observations from a re-analysis of the deposited data

Results flagged for a closer look

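Among the named genes, 10 were called in opposite directions in shARNT and shBMAL1 against the same shControl libraries, and their direct difference was itself called by edgeR's quasi-likelihood F-test. None of the 9 members was among them. Apart from MDM4, these genes had been named for large changes, and the share of all tested genes called in opposite directions was not counted. For scale, 40.5% of all tested genes were called higher and 41.3% lower in shARNT, and 31.9% and 31.5% in shBMAL1. In each case the value given is the log2 difference of shARNT from shBMAL1.

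Those with roles in death signalling or p53 control were higher in shARNT, PIDD1 by 3.36 (adjusted p = 1.5e-17), TNFRSF10A by 1.83 (adjusted p = 6.7e-16) and MDM4 by 1.12 (adjusted p = 6.37e-08). SUSD6 was also higher by 1.39 (adjusted p = 6.87e-11), as were the mitotic genes KIF23 by 1.32 (adjusted p = 4.53e-13) and AURKA by 0.80 (adjusted p = 8.36e-10), and PPP1R15A by 1.13 (adjusted p = 1.83e-14). Lower in shARNT were STEAP3 (-2.23, adjusted p = 6.48e-20), FUCA1 (-1.92, adjusted p = 4.73e-16) and ASNS (-0.79, adjusted p = 8.94e-12). For STEAP3 the rise in shBMAL1 was small, at 0.08 (adjusted p = 0.0874). PIDD1 fell by 0.34 in shBMAL1 (SE 0.101, adjusted p = 0.00748), and its shBMAL1 libraries overlapped those of shControl.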

How the results depend on the processing

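Of 378 values for the 27 member results under the 17 alternatives, 365 kept their direction and side of the threshold, 12 were no longer called and 1 reversed. The reversal was RRM2B in shARNT against shBMAL1, -0.06 as reported and 0.13 (adjusted p = 0.0124) with library size alone. That scaling shifted the median of all genes by 0.24 in shARNT against shControl, 0.05 in shBMAL1 and 0.19 in the direct comparison, and the share of calls that were higher went from 49.6% to 60.5%, from 50.3% to 55.8% and from 49.4% to 58.6%.

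A required fold change above 1.5 is a stricter test and lowered the counts by construction. In shARNT against shControl it left 3116 genes higher and 3850 lower, 7 members higher and 1 lower, 22 other targets higher and 6 lower, and 2 regulators higher and 4 lower. In shBMAL1 it left 1026 genes higher and 1084 lower, 5 members higher and 1 lower, 11 other targets higher and 1 lower, and 0 regulators higher and 1 lower. In the direct comparison it left 3017 genes higher and 3814 lower, 4 members higher and 0 lower, 14 other targets higher and 10 lower, and 2 regulators higher and 3 lower. Leaving out single libraries removed the direct FAS call and no other member call.

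No strong shared effect of the replicate number was seen, since 1 of 9 same-number pairs had a correlation of deviations above 0.1 (range -0.17 to 0.17). In all, 4 libraries correlated best with their own number, and with 3 libraries per group this check cannot exclude pairing. With the number as a replicate block, 8 members were higher and 1 lower in each depletion and 8 were higher in the direct comparison, as without it.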
